A study of Arabidopsis thaliana with 9 samples.

Results

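The RGI receptors are a family of 5 leucine-rich repeat receptor kinases of Arabidopsis thaliana. They were taken by locus, as RGI1 (AT5G48940), RGI2 (AT3G24240), RGI3 (AT4G26540), RGI4 (AT5G56040, also named SKM2) and RGI5 (AT1G34110), and all 5 had a probe set among the 21430 loci measured. Expression was measured with arrays in cells of the quiescent centre (QC), the slowly dividing cells at the tip of the root meristem. All plants were of the plt1plt2 double mutant genotype and carried pPLT2-PLT2-GR, in which the transcription factor PLT2, driven by its own promoter, is fused to the hormone-binding part of the glucocorticoid receptor. The groups were mock (solvent for 1 h), dexamethasone at 10 µM for 1 h, and dexamethasone at 10 µM for 4 h, with 3 arrays each. Seedlings were treated at 5 days, root tips were digested to protoplasts, and cells carrying a WOX5 promoter-driven GFP were sorted. No 4 h mock and no dexamethasone treatment without the construct were among the samples, so incubation time and an effect of the steroid itself cannot be told apart from the release of PLT2-GR.

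RGF peptides (root meristem growth factors, also called GOLVEN or CLEL) are small secreted peptides that need tyrosine sulfation by the enzyme TPST. RGI receptors bind them at the cell surface together with SERK co-receptors, and the signal passes through a MAP kinase cascade. In the root tip this pathway is known to keep up the level of PLT1 and PLT2 proteins, and plants without the receptors have a short root meristem. The question addressed here is therefore how the receptors of a pathway that acts on PLT proteins behaved once PLT2-GR was released.

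Values are log2 expression per probe set, so a difference of 1 is a 2-fold change, and fold changes carry the standard error of the limma model. Calls rest on a Benjamini-Hochberg adjusted p below 0.05, taken over all 21430 loci. In bulk RNA of sorted cells, fewer cells of a type and less RNA per cell cannot be told apart. Of the QC and niche markers, WOX5 was not analysed here. AGL42 had a mean mock level of 2.88, under the first quartile of every array (3.55 to 3.63), while SCR, a regulator of the stem cell niche, had 8.55 in mock. Arrays of a group correlated across loci at 0.990 to 0.997. At 4 h replicate 1 the poly-A control RNAs had a mean log2 signal of 8.79, against 6.16 to 6.66 on the other 8 arrays, and the 3 arrays at 4 h lay apart on the first principal component (40.6, 27.3 and 4.25 for replicates 1, 2 and 3). Results at 4 h are therefore also given without 4 h replicate 1.

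Within the family 2 receptors rose, 1 fell and 2 did not pass the test at 4 h. RGI1 and RGI5 stood 2.25-fold and 2.26-fold above mock, RGI4 was 2.64-fold lower, and RGI2 and RGI3 had log2 fold changes of 0.35 and 0.24. At 1 h only RGI5 was called. Over all loci limma called 10.8% of loci at 4 h (5.53% rises and 5.23% falls) and 0.187% at 1 h, 0.177% as rises and 0.00933% as falls. Between 4 h and 1 h RGI5 was called higher and RGI4 lower, where limma called 1.85% of loci, 0.887% higher and 0.966% lower. The median log2 fold change of the 5 receptors was 0.46 at 1 h, against -0.01 over all loci, and 0.35 at 4 h, against 0.01 over all loci. The number of arrays limits the precision.

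**Figure D1:**
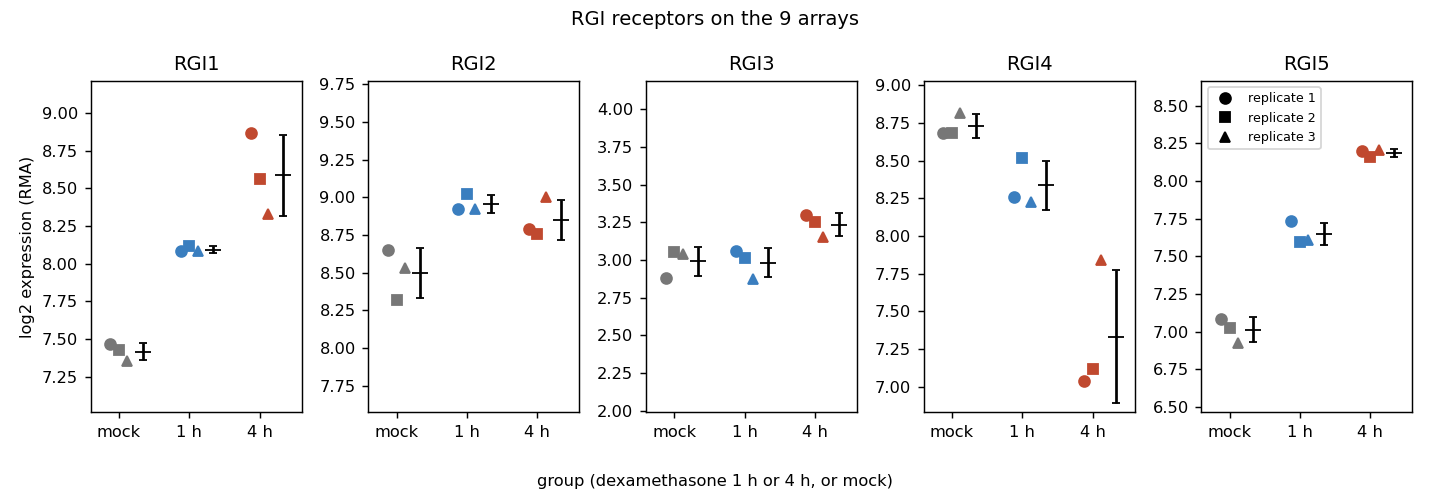
Log2 expression of each RGI receptor (vertical axis, the same span in every panel) on the 9 arrays, by group along the horizontal axis. Symbols are single arrays, and bars are the group mean with 1 SD (n = 3). RGI1 and RGI5 lie higher in each later group, RGI4 lower, and RGI3 stays between 2.88 and 3.30.

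RGI1 and RGI5 are receptors for RGF1 and its relatives, and RGI1 binds RGF1 through its extracellular repeats. RGI5 had values of 7.09, 7.03 and 6.92 in mock, of 7.73, 7.60 and 7.61 at 1 h, and of 8.20, 8.16 and 8.20 at 4 h. The groups did not overlap, and the 4 h values lay within a few hundredths of each other (SD 0.02, n = 3, against 0.08 in mock). RGI5 rose by 0.64 ± 0.08 at 1 h against mock (adjusted p = 0.0127), by 1.17 ± 0.08 at 4 h against mock (adjusted p = 5.37e-05) and by 0.54 ± 0.08 at 4 h against 1 h (adjusted p = 0.0236). By p-value it was in place 16 of 21430 loci at 1 h and in place 8 at 4 h. The rise at 1 h lost its call without mock replicate 2 or 3 or without any 1 of the 3 arrays at 1 h (adjusted p of 0.0664 to 0.0934), with a fold change of 0.59 to 0.66 in these fits. The rise at 4 h kept its call without any 1 of the 9 arrays, and was 1.17 (adjusted p = 0.000375) without 4 h replicate 1. The rise between 1 h and 4 h lost its call without mock replicate 3, any 1 array at 1 h, or 4 h replicate 1 or 2 (highest adjusted p = 0.151).

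RGI1 had a similar course. Its values were 7.46, 7.43 and 7.36 in mock, 8.08, 8.12 and 8.08 at 1 h, and 8.87, 8.56 and 8.33 at 4 h. The 3 groups did not overlap, and the arrays at 4 h were spread more widely (SD 0.27) than those at 1 h (SD 0.02) or in mock (SD 0.05). The difference of 1 h from mock was 0.68 ± 0.12 and did not pass (adjusted p = 0.0807), in spite of the separate values. It passed without 4 h replicate 1 (adjusted p = 0.00904) and without 4 h replicate 3 (adjusted p = 0.0207), which enter that comparison only through the shared estimate of the spread. Those were the only 2 of the 9 fits without an array in which it passed. In the others the adjusted p was as high as 0.402. At 4 h RGI1 rose by 1.17 ± 0.12 against mock (adjusted p = 0.00086), and by 1.03 (adjusted p = 0.00105) without 4 h replicate 1. The step between 1 h and 4 h was 0.49 ± 0.12 and did not pass (adjusted p = 0.0636). Whether RGI1 and RGI5 differ in their response was not tested. Their fold changes lay within a standard error of each other at both times.

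RGI4, a receptor of the same peptides, is also named sterility-regulating kinase member 2. It had values of 8.69, 8.69 and 8.82 in mock, of 8.26, 8.52 and 8.23 at 1 h, and of 7.04, 7.12 and 7.84 at 4 h. Each group lay below the one before it with no overlap. At 4 h replicates 1 and 2 were close together, and replicate 3, which also lay nearest to mock on the first principal component, lay above both. RGI4 fell by 1.40 ± 0.18 at 4 h against mock (adjusted p = 0.00298) and by 1.003 ± 0.18 at 4 h against 1 h (adjusted p = 0.0362). At 1 h its difference from mock was -0.40 ± 0.18 (adjusted p = 0.998), with a 95% interval of -0.80 to 0.01. Among all 21430 loci its change at 4 h was in place 22 from the lowest. The fall against mock was called without any 1 of the 9 arrays. It was -1.25 (adjusted p = 0.0104) without 4 h replicate 1 and -1.65 without 4 h replicate 3. The fall between 1 h and 4 h was not called without any 1 of the other 8 arrays, with an adjusted p of 0.0620 to 0.174, and passed without 4 h replicate 3.

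Markers of other root cell types moved downward beside RGI4. Of 41 measured markers of root cap, epidermis, endodermis and vascular tissue, 7 were called lower and 2 higher at 4 h. Over all loci 5.23% were called lower and 5.53% higher. The median log2 fold change of the 41 was -0.27 (0.01 over all loci), and their part in the change of RGI4 was not tested. The called falls were RHD6 (-0.81) and RHD2 (-0.72) of the epidermis, ESB1 (-0.52) of the endodermis, and XCP1 (-0.69), TMO5 (-0.52), ACL5 (-0.47) and NAC086 (-0.42) of vascular tissue. The called rises were FEZ (0.97), a regulator of root cap stem cells, and PHB (0.64), a regulator of vascular patterning. FEZ went against its list, since the 8 root cap markers had a median of -0.38 at 4 h. The lowest of them was BRN2 (-0.76), and 0 of the 8 were called lower. The summed linear signal of the 41 markers ranged from 6119 to 7237 in mock, from 5681 to 6874 at 1 h and from 4884 to 5935 at 4 h. Root cap markers alone summed to 3873 to 4920 in mock and to 3055 to 3835 at 4 h. The root cap marker RCPG had a mean of 11.55 in mock, where 98.6% of loci had a lower mean. None of the 41 was listed at 0, since the lowest value of any locus was 2.15. Without 4 h replicate 1, 2 of the 41 were called lower and 0 higher, and RGI4 was called. Over all 21430 loci that fit called 514 lower and 695 higher, against 1120 and 1185 with all 9 arrays. Of the 6 measured QC and niche markers, MYB56 rose by 0.70 at 4 h, with an adjusted p of 0.046, and was called in 1 of the 9 fits without an array. The other 5 did not pass.

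RGI2, a receptor for the same peptides, had values of 8.65, 8.32 and 8.53 in mock, of 8.92, 9.02 and 8.92 at 1 h, and of 8.79, 8.75 and 9.001 at 4 h. All arrays with dexamethasone lay above all mock arrays, and the 1 h and 4 h arrays overlapped. The differences from mock were 0.46 ± 0.10 at 1 h (adjusted p = 0.29, 95% interval 0.22 to 0.69) and 0.35 ± 0.10 at 4 h (adjusted p = 0.0574, interval 0.12 to 0.58). Neither passed, and at 4 h the difference passed in 1 of 17 alternative settings, the one without dim loci (adjusted p = 0.044). The 4 h against 1 h difference was -0.11 ± 0.10.

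RGI3, a further receptor of the same peptides, was dim. Its values were 2.88, 3.05 and 3.04 in mock, 3.06, 3.01 and 2.88 at 1 h, and 3.30, 3.25 and 3.15 at 4 h, all under the first quartile of the arrays, and 7.75% of loci had a lower mean in mock. The difference from mock was -0.01 ± 0.09 at 1 h, with a sign that changed without single arrays (-0.064 to 0.044), and 0.24 ± 0.09 at 4 h (adjusted p = 0.107). The arrays at 4 h lay above those of mock without overlap. No measure of background comes with the values, which leaves the size of a change in RGI3 uncertain.

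Set side by side, all 5 receptors had 4 h arrays that did not overlap with mock, 4 above and 1 below, as had 27.7% of all loci (14.3% above and 13.4% below). At 1 h this held for 3 above and 1 below, against 5.73% and 5.40% of loci (11.1% in either direction). Between 4 h and 1 h it held for RGI1, RGI3 and RGI5 above and RGI4 below, against 11.7% and 10.1% of loci (21.7% in either direction). The values of RGI1 and RGI5 lay in the order mock, 1 h, 4 h with no overlap between neighbouring groups, as did those of 1.68% of loci. RGI4 lay in the reverse order, as did 0.803% of loci, so that 3 of the 5 receptors were in order against 2.49% of all loci. The comparisons at 1 h and 4 h share the mock arrays. Close paralogs can share probes. No sequences of the probes were used here, so values of family members are uncertain to that extent.

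**Figure D2:**
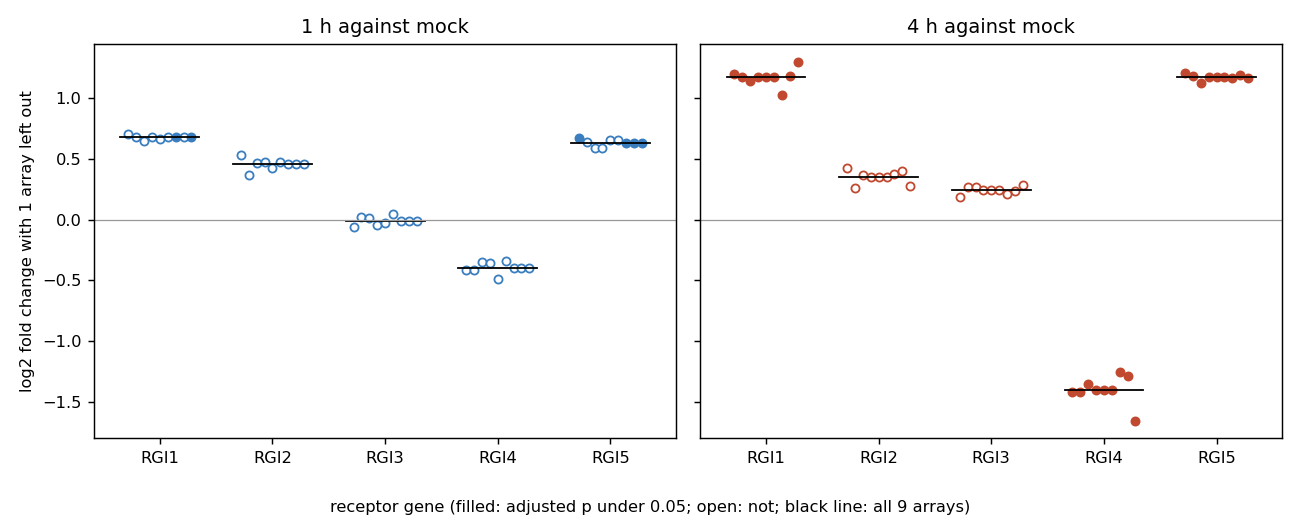
Log2 fold change of each RGI receptor (vertical axis) when each of the 9 arrays is left out in turn, for 1 h against mock (left) and 4 h against mock (right). Filled circles passed the adjusted p of 0.05, open circles did not, and black lines are the values with all 9 arrays. At 4 h RGI1, RGI4 and RGI5 are filled in every fit.

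The loci whose course over the 9 arrays came closest to that of a called receptor were found by the root mean square difference after the mock mean was subtracted. For RGI5 the nearest locus was DGK7 (AT4G30340), a diacylglycerol kinase, at 0.09 log2 units, and the second nearest of 21429 was RGI1, at 0.14. DGK7 was itself called, with 0.61 at 1 h (adjusted p = 0.0138) and 1.11 ± 0.08 at 4 h (adjusted p = 7.43e-05). The third was AT2G24280, at 0.17. For RGI1 the nearest were AT2G38970 at 0.10, COBL1 (AT3G02210), of the COBRA-like cell wall proteins, at 0.13, and RGI5 at 0.14. RGI4 came closest to AT1G12845 at 0.11, to PXL2 (AT4G28650) at 0.12 and to CYCP4;1 (AT2G44740), a P-type cyclin, at 0.12. PXL2 belongs to the same large subfamily of receptor kinases as the RGI receptors. In RGI4 and in each of these 3 loci, 4 h replicate 3 was the array at 4 h nearest to mock. The 3 loci were chosen for likeness to RGI4 over these same arrays, so this shared order comes with the choice. These distances are a description over 9 arrays that share groups and normalization. RGI2 stood in place 672 in the order of likeness to RGI5, and RGI4 in place 21408.

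**Figure D3:**
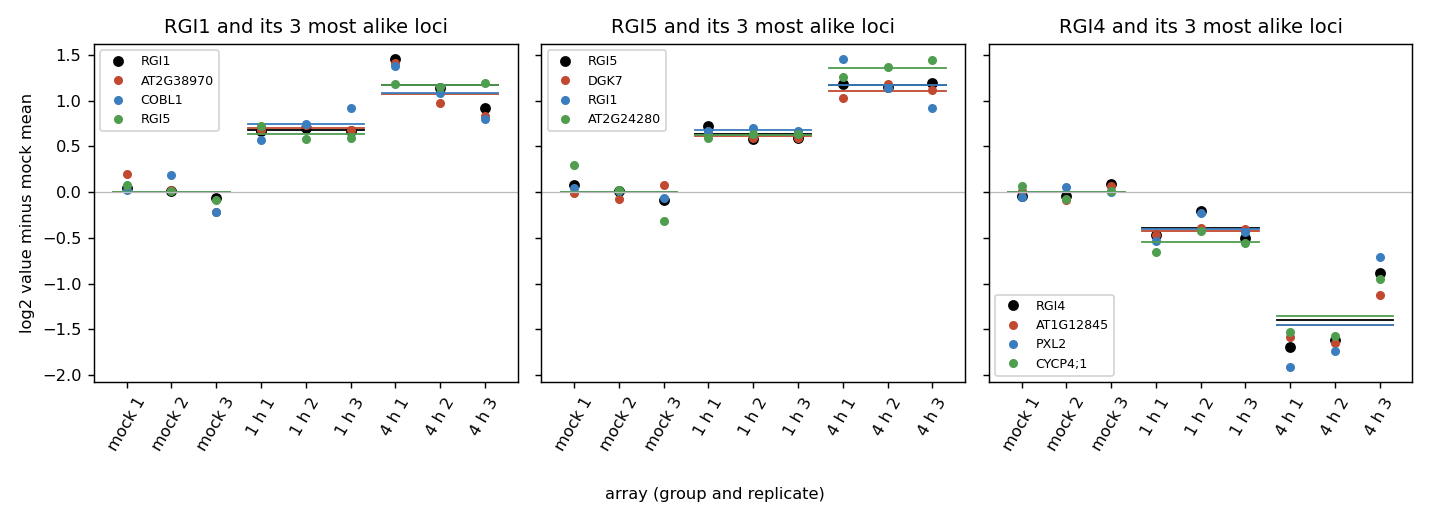
Log2 value minus the mock mean (vertical axis) on each of the 9 arrays (horizontal axis) for RGI1, RGI5 and RGI4 with the 3 loci most like each. Points are arrays and lines are group means. RGI1 and RGI5 appear in each other's panel, and RGI4 stands with PXL2, AT1G12845 and CYCP4;1, whose 4 h means lie between -1.35 and -1.45.

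Of the 10 direct neighbours of the receptors in the order of protein-coding genes in TAIR10.1, 7 were measured. The measured neighbours of the called receptors were HCT beside RGI1 (0.05 ± 0.17 at 4 h), HSP81-2 beside RGI4 (-0.01 ± 0.10) and IP5PI beside RGI5 (0.07 ± 0.18), and none of these passed. The 1 called neighbour was AT4G26550 beside RGI3, which fell by 0.41 ± 0.11 at 4 h (adjusted p = 0.036). Over all loci limma called 10.8% at 4 h, so calls among so few neighbours cannot be set apart from that share.

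Among the ligands, 6 of the 9 RGF peptide genes listed were measured, and RGF1, RGF2 and RGF5 were not analysed here. At 4 h 3 of the 6 rose, 0 fell and 3 did not pass, where 5.53% of all loci were called higher and 5.23% lower. The median log2 fold change of the 6 was 0.47, against 0.01 over all loci. RGF8 had values of 6.75, 6.52 and 6.43 in mock, of 7.77, 8.21 and 8.16 at 1 h, and of 8.80, 7.57 and 7.77 at 4 h. All induced arrays lay above mock, and those at 1 h and 4 h overlapped. Its difference from mock was 1.48 ± 0.27 at both times, which passed at 4 h (adjusted p = 0.00956) and not at 1 h (adjusted p = 0.0906). RGF3 had values of 8.55, 8.76 and 8.83 in mock, of 9.71, 9.92 and 10.20 at 1 h, and of 10.72, 9.65 and 9.89 at 4 h. It rose by 1.37 ± 0.24 at 4 h (adjusted p = 0.00837), and the 1 h difference of 1.23 ± 0.24 did not pass (adjusted p = 0.129). Without 4 h replicate 1, the highest array for both peptides, the 4 h rises were 1.0996 for RGF8 and 1.05 for RGF3, both called, and both 1 h differences passed (adjusted p = 0.0024 and 0.00668). Each 1 h difference was called in only 1 of the 9 fits without an array. Over all 17 alternatives the adjusted p at 1 h reached 0.472 for RGF8 and 0.639 for RGF3. RGF4 rose by 0.91 ± 0.21 at 4 h (adjusted p = 0.0228). It was called in 5 of the 9 fits without an array, and not without 4 h replicate 1 (0.69, adjusted p = 0.062). RGF6, RGF7 and RGF9 had 4 h values of -0.02, -0.28 and 0.03. RGF9 was dim, with a mock mean of 2.71, under the first quartile of every array. The receptors RGI1 and RGI5 thus had separate 1 h and 4 h values, where the arrays of RGF3 and RGF8 at these times overlapped. Whether these courses differ was not tested.

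Genes that mature the peptides or carry the signal mostly did not pass. The same held for most loci, since limma called 10.8% of all loci at 4 h. Of 3 maturation enzymes limma called 0 at 4 h. TPST, the sulfotransferase, stood at 0.10 ± 0.08, and the subtilases SBT6.1 and SBT6.2 at -0.16 and 0.12, with 0 of 3 at an unadjusted p under 0.05, a level that 26.8% of all loci reached at 4 h. Of 4 SERK co-receptors, SERK2 rose and 3 did not pass. SERK2 had values of 4.99, 4.53 and 4.96 in mock, of 5.06, 5.14 and 5.05 at 1 h, and of 5.45, 5.31 and 5.32 at 4 h. The 4 h rise was 0.53 ± 0.12 (adjusted p = 0.0211), and it was called in 6 of the 9 fits without an array, not in that without 4 h replicate 1 (adjusted p = 0.0646). BAK1, the best known member, was at -0.06 ± 0.08. The deubiquitinases UBP12 and UBP13, known to stabilise RGI1 protein, were at -0.11 and -0.07, and limma called 0 of 2, with 0 at an unadjusted p under 0.05.

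Of 5 genes of the MAP kinase cascade limma called 0 at 4 h, against 10.8% of all loci. An unadjusted p under 0.05 was reached by 3, against 26.8% of all loci. MPK3 stood at 0.40 ± 0.17 and MPK6 at -0.25 ± 0.10, with YDA at -0.34, MKK5 at -0.28 and MKK4 at 0.08. Of the targets, RITF1 was not analysed here. PLT1 and PLT2, the proteins of which the pathway raises, had 4 h values of 0.09 ± 0.09 and -0.02 ± 0.16. The probe set of PLT2 may read the fusion, the mutated gene or both, which cannot be told apart here. PLT1 is mutated in these plants too, so its probe set may read only the mutated gene. At 1 h none of these maturation, co-receptor, deubiquitinase, MAP kinase or target genes was called by limma, and 0 had an unadjusted p under 0.05, against 4.34% of all loci.

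**Figure D4:**
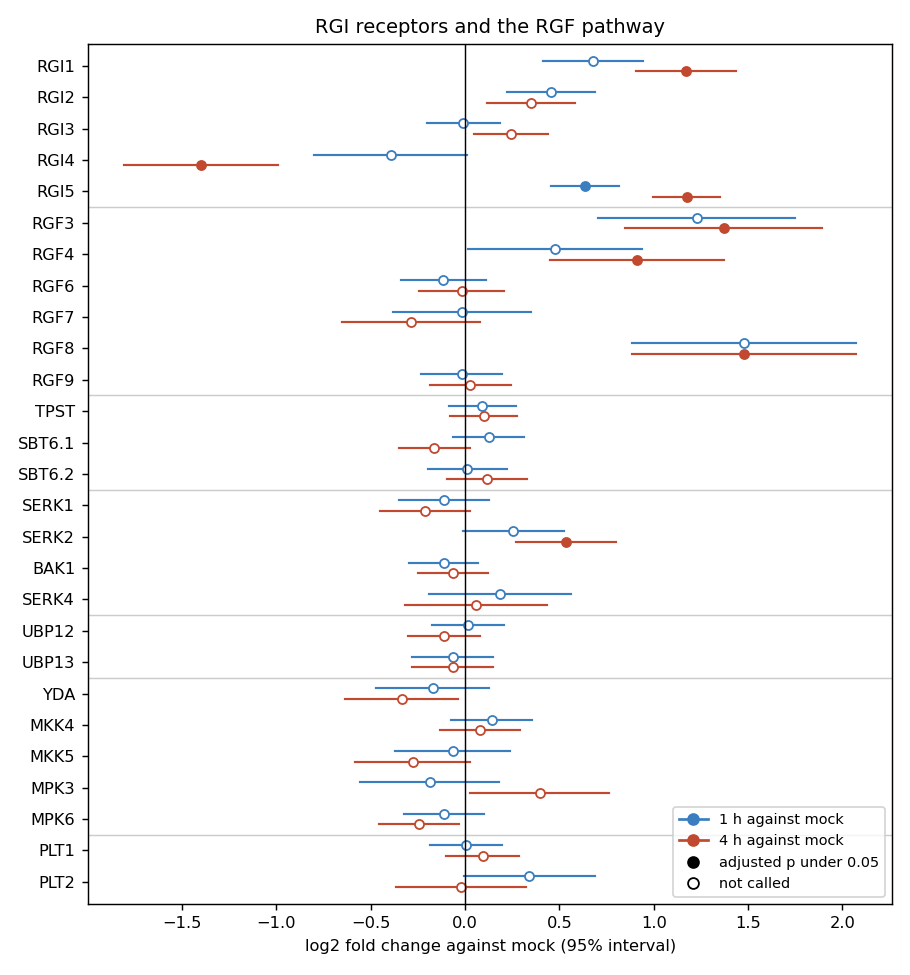
Log2 fold change against mock with its 95% interval (horizontal axis) for the RGI receptors and 22 other measured genes of the RGF pathway (vertical axis, grouped by role), at 1 h (blue) and 4 h (red). Filled circles are called. Outside the receptors the filled circles are RGF3, RGF4, RGF8 and SERK2, all at 4 h.

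The RGI receptors belong to subfamily XI of the leucine-rich repeat receptor kinases, whose other members bind further peptides. Of 19 such relatives, 4 rose and 2 fell at 4 h, 13 did not pass, and the median log2 fold change was -0.02. Over all loci 5.53% were called higher and 5.23% lower. Over the 5 RGI receptors the median was 0.35, which is the value of RGI2, a receptor that was not called. CEPR2, a receptor of CEP peptides, rose by 0.92 ± 0.13 (adjusted p = 0.00404), with values of 5.99, 5.97 and 5.76 in mock, of 6.36, 6.32 and 6.64 at 1 h, and of 6.76, 6.65 and 7.07 at 4 h. Like RGI1 and RGI5 it showed no overlap between neighbouring groups, and its 1 h difference of 0.54 ± 0.13 did not pass (adjusted p = 0.361). The smaller rises were HSL1 at 0.51 ± 0.12, HSL2 at 0.42 ± 0.11, both related to the abscission receptor HAESA, and the CLE receptor BAM1 at 0.36 ± 0.09.

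The falls among the relatives were of PXL2 and PXL1, both related to the vascular receptor PXY. PXL2 had values of 7.99, 8.10 and 8.05 in mock, of 7.51, 7.82 and 7.61 at 1 h, and of 6.13, 6.31 and 7.34 at 4 h, and fell by 1.45 ± 0.25 at 4 h (adjusted p = 0.00837). PXL1 fell by 0.78 ± 0.20 (adjusted p = 0.0341). PXY was dim, with a mock mean of 3.50 and a 4 h value of 0.04 ± 0.11. CEPR2 and PXL2 were called without any 1 of the 9 arrays, whereas PXL1, HSL1, HSL2 and BAM1 were called in 4, 5, 2 and 4 of these 9 fits. Without 4 h replicate 1 the counts were 2 higher and 1 lower, in a fit that called 695 of 21430 loci higher and 514 lower. At 1 h limma called 0 of the 19, with 2 at an unadjusted p under 0.05 (4.34% of all loci). The receptors of other sulfated peptides are PSKR1, PSKR2, PSY1R, GSO1 and GSO2, of which GSO1 and GSO2 are also among the 19. Of these limma called 0 of 5 at 4 h, against 10.8% of all loci. An unadjusted p under 0.05 was reached by 2 (26.8% of all loci), and the values ranged from -0.52 to -0.06. GSO2 was dim, with a mock mean of 2.99.

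**Figure D5:**
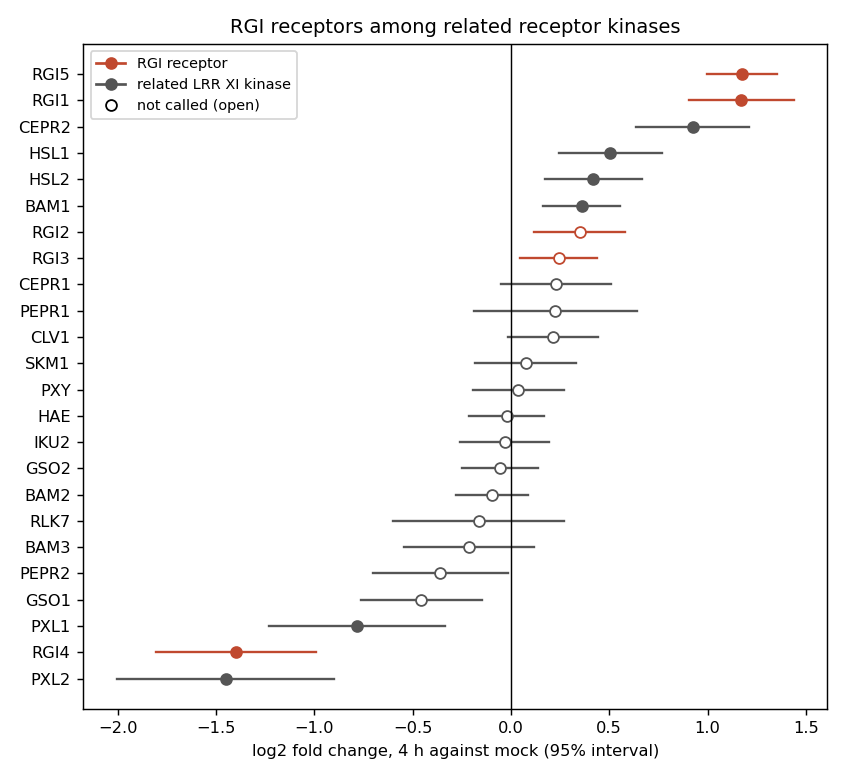
Log2 fold change at 4 h against mock with its 95% interval (horizontal axis) for the 5 RGI receptors (red) and 19 related receptor kinases (grey), sorted by value. Filled circles are called. RGI5 and RGI1 are the highest of the 24 and RGI4 is next to PXL2 at the low end.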

How the data were processed

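Expression was measured on 9 arrays, 3 per group, named biological replicates in the labels. Nothing used here says more of their origin, so p-values measure the spread among these arrays. The deposited table holds log2 values, 1 for each probe set. The submitters' processing notes name RMA and limma 3.24.15 as tools, without their roles. The array type and genome build were not stated in what was used here. Of 21494 probe sets, 64 controls were left out. The other 21430 are 1 per locus, and 21231 matched the TAIR10.1 table used for symbols and gene order. RGI numbers were taken from the locus list. No coordinates or sequences were used.

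Values were used as deposited. One limma 3.58.1 model in R 4.3.3 (lmFit, eBayes, 6 residual and 4.47 prior degrees of freedom) was fitted to all arrays with 1 mean per group. The 3 contrasts were tested two-sided with Benjamini-Hochberg adjustment over 21430 loci. Errors after ± are its standard errors (median 0.108), unless marked SD. The model was also run on simulated data in which each locus had the same spread in all groups. That run does not cover the wider spread that genes such as RGI1 had at 4 h.

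The named genes were the RGI receptors, called members of the pathway, relative and marker lists with uncalled members where a list needs them, and the 3 loci most like each called receptor. Members, lists and contrasts were chosen with earlier results of these data known. Same-numbered arrays correlated in their deviations from group means at -0.131 to 0.273, so the numbers were not taken to pair arrays. Alternatives were quantile normalization, median centring, leaving out loci below the 40th percentile, eBayes with trend and robust settings, array weights, a fit of only the groups compared, a replicate block, a log2 fold change of at least 1, and each array left out in turn.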

Additional observations from a re-analysis of the deposited data

Results flagged for a closer look

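The effects of 1 h and 4 h of dexamethasone against mock differed for 2 receptors by the test of 4 h against 1 h in limma. The difference was -1.003 ± 0.18 for RGI4 (adjusted p = 0.0362), lower in 3 of 3 arrays at 4 h than in any at 1 h, and 0.54 ± 0.08 for RGI5 (adjusted p = 0.0236), higher in 3 of 3. Over all loci 1.85% were called in this comparison. The 4 h arrays lay all below those at 1 h for 10.1% of loci and all above for 11.7%. In the 9 fits without an array, the call held in 1 for RGI4 and in 3 for RGI5. Among the control probe sets, which enter no comparison, the poly-A controls of 4 h replicate 1 had a mean log2 signal of 8.79, above the mock arrays (6.26 to 6.47).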

How the results depend on the processing

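At 4 h against mock 1 receptor was called lower in all 17 alternatives, and 2 were called higher in all but the one without dim loci, which called 3, with RGI2 added. At 1 h against mock the 1 receptor called higher became 2 with array weights or only the 2 groups compared, 0 with a minimum log2 fold change of 1, and 0 to 2 without single arrays. At 4 h against 1 h the 1 called higher became 2 with array weights, 0 with only the 2 groups compared or the minimum fold change, and 0 to 2 without single arrays. The 1 called lower became 0 with only the 2 groups compared and was 0 to 1 without single arrays. Over all loci the count at 1 h was 40, and 79 with array weights, 65 with the 2 groups, 23 with the minimum fold change and 6 to 61 without single arrays. At 4 h against mock it was 2305, and 1067 with the 2 groups, 171 with the minimum fold change and 688 to 4153 without single arrays. At 4 h against 1 h it was 397, and 1699, 4, 36 and 3 to 2808 in the same order, array weights first. The cause of these shifts was not tested. Some of these fits also used fewer arrays. The difference of RGI3 at 1 h, -0.01, turned to 0.021 without mock replicate 2, 0.016 without mock replicate 3 and 0.044 without 1 h replicate 3 (-0.064 to 0.044 over all 9 arrays left out in turn). With the replicate block the receptor counts were the same in all 3 comparisons (RGI5 at 1 h 0.64, adjusted p = 0.0347), and 36, 2340 and 422 loci were called. RGI3 was not tested without dim loci. Signal over background was not measured, which limits RGI3 most.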
